A study of Mus musculus with 13 samples.

Results

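Atf4 and 9 of its target genes in the integrated stress response and in serine, one-carbon, and asparagine metabolism (Ddit3, Trib3, Chac1, Asns, Phgdh, Psat1, Psph, Shmt2, and Mthfd2) were followed in sciatic nerves of control and RaptorKO mice, crushed or left uninjured. They form a list given by name, and each matched 1 row among the 40787 genes of the count table. After crush Phgdh fell, and Shmt2 and Mthfd2 rose, in both genotypes. Crush changed much of the transcriptome, with 32.4% of all tested genes called higher and 32.9% lower in controls, and 30.5% and 28.5% in RaptorKOs. No difference between RaptorKO and control nerves passed the test for any gene that could be tested, 7 in contralateral and 8 in injured nerves. Of all tested genes 10.2% were called in contralateral and 8.54% in injured nerves. With so few genes, counts of 0 lie near these shares.

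ATF4 is a bZIP transcription factor whose mRNA is translated preferentially when eIF2 is phosphorylated by one of the stress kinases, and also when mTORC1 is active. Its amount therefore depends on translation as well as on transcript level, and RNA sequencing reads only the latter. Together with C/EBP partners it binds C/EBP-ATF response elements (CAREs) at genes for amino acid uptake and synthesis. The serine pathway starts from the glycolytic intermediate 3-phosphoglycerate, which PHGDH oxidizes, PSAT1 transaminates, and PSPH dephosphorylates to serine. SHMT2 then moves a carbon unit of serine onto folate in mitochondria, and MTHFD2 carries that unit further toward formate for nucleotide synthesis. In nerve, serine is also the substrate of sphingolipid synthesis, which supplies myelin.

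The nerves came from C57BL/6 mice. RaptorKO mice carried floxed Rptor alleles and a tamoxifen-inducible CreERT2 transgene that recombines in Schwann cells (SCs), whereas controls had the floxed alleles without Cre. Both genotypes received tamoxifen at 2 months of age, the sciatic nerve of one side was crushed 2 months later, and nerves were taken at 5 days post crush (dpc). The 13 libraries, each from 1 nerve without its epineurium, comprised 3 control contralateral, 4 RaptorKO contralateral, 3 control injured, and 3 RaptorKO injured nerves. The labels do not say which libraries come from 1 mouse, so p-values measure the spread between libraries. Library totals ranged from 8200458 to 13581775 counts. Rptor, which encodes Raptor, held 43.7 to 52.5 CPM in contralateral controls against 22.1 to 28 in RaptorKOs, and 35 to 48.6 against 23.2 to 28.6 in injured nerves, where CPM is the count per 1000000 after TMM scaling. It was lower in RaptorKOs in both (adjusted p = 5.00e-04 and 0.0167 by the quasi-likelihood test of edgeR, adjusted after Benjamini and Hochberg over all tested genes). Both libraries of control replicate 3 stood apart, with 15017 and 14462 counts of Xist against 4 to 17 in the other 11 libraries. Their summed counts of the Y-linked Ddx3y, Kdm5d, Uty, and Eif2s3y were 10 and 20, against 1456 to 2338. This is the pattern of female nerves, and no RaptorKO library had it, so sex was not balanced between the genotypes. The changes with crush are also given without these libraries. Leaving them out gave no call between the genotypes for any of the 10 genes.

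The CARE was searched as TTNCATCA on both strands (TGATGNAA in reverse) in the 300 bases from 250 before to 50 after the start of each gene, as given by RefSeq for GRCm38.p6. All 10 genes had such a window, and Psat1 had a pair. The letters were found at 3 of the 10, Asns, Chac1, and Trib3, against 4.44% of 26742 genes. The palindromic cyclic AMP response element TGACGTCA was found in none of the 10 and in 2.05% of all genes. A match describes the letters only, and their absence from these windows says nothing about ATF4 elsewhere in a gene. The following 60 bases around each match are shown because they set these 3 genes apart from the others by sequence, with the CARE in capitals. The Asns match, the nutrient-sensing element of that promoter, reads in the reverse direction and begins 23 bases before the gene's start. The match of Chac1 begins 193 bases before the start, and that of Trib3 at base 15 of the transcript. These starts are those of RefSeq and differ from the ends of the GENCODE gene spans given with each gene. The Asns match and the whole Mthfd2 window lie inside the GENCODE spans, and the Trib3 match lies just outside.
Asns, chr6:7693199-7693258, minus strand: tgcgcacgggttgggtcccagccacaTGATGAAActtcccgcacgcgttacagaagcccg
Chac1, chr2:119351023-119351082, plus strand: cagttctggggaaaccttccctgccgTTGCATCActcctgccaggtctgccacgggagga
Trib3, chr2:152344013-152344072, minus strand: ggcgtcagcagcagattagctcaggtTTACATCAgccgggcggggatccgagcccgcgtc
The promoters of Phgdh, Shmt2, and Mthfd2, the genes that changed in both genotypes after crush, hold no CARE and are shown whole for comparison.
Phgdh, chr3:98339920-98340219, minus strand: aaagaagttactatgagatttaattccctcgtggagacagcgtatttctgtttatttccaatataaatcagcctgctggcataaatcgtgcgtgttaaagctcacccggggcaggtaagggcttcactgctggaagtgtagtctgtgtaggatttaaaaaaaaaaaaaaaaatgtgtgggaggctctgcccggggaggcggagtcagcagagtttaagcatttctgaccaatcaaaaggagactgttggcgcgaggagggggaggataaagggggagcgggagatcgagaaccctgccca
Shmt2, chr10:127522395-127522694, minus strand: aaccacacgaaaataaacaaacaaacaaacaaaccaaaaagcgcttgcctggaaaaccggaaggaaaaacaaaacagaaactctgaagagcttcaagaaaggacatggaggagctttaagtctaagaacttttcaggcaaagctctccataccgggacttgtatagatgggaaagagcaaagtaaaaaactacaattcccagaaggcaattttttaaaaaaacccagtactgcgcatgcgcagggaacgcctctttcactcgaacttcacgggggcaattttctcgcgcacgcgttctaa
Mthfd2, chr6:83317555-83317854, minus strand: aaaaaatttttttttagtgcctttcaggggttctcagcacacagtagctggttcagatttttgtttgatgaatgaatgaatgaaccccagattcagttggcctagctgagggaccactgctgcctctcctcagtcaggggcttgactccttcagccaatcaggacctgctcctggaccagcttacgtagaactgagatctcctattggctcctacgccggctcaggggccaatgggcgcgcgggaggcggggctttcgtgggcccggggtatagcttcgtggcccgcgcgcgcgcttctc

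Tests required 50 counts in 2 or more libraries of the comparison. A gene counts as called where edgeR's quasi-likelihood test gave an adjusted p under 0.05 and the fold change exceeded 1.2. The first question was how crush moves these genes when mTORC1 can be reactivated. In control nerves 8 of the 10 could be tested. Asns, Shmt2, and Mthfd2 rose and Phgdh fell, so 3 were called higher and 1 lower, where 32.4% of all tested genes were called higher and 32.9% lower. In RaptorKO nerves 8 could again be tested, and 2 were called higher and 1 lower, against 30.5% and 28.5% of all tested genes. In both genotypes Mthfd2 could be tested only through the counts of its injured libraries. The groups did not overlap for 5 of the 8 genes in controls (70.9% of all tested genes) and for 4 of the 8 in RaptorKOs (60.6%). With 8 genes, these shares do not set the group apart from all genes. The median log2 fold change of the tested genes was 0.25 in controls and 0.20 in RaptorKOs, beside -0.00 and 0.03 over all tested genes. In whole nerve, a fall may reflect fewer cells of a type or less RNA per cell, and these cannot be told apart.

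The second question was whether the loss of Raptor shifts these genes. In contralateral nerves 7 of the 10 could be tested, and none was called, where 10.2% of all tested genes were. None of the 7 had an unadjusted p below 0.05 in edgeR's quasi-likelihood test, its exact test, or DESeq2, and in none were the groups apart (23.6% of all tested genes). In injured nerves 8 could be tested and none was called, against 8.54% of all tested genes. Again 0 of the 8 had an unadjusted p below 0.05 in any of these 3 tests. The groups did not overlap for 1 of the 8, Psat1, against 26.3% of all tested genes. With 7 and 8 genes, these counts do not set the group apart from all genes. Of the 8 log2 fold changes in injured nerves 7 lay below 0, with a median of -0.18 beside 0.00 over all tested genes. The interaction term, which tests whether the response to crush differed between the genotypes, was called for 0 of 8 genes and for 2.47% of all tested genes. With an unadjusted p below 0.05, 1 of the 8 passed in edgeR's quasi-likelihood test and 1 in DESeq2. Without the count filter 2 of the 10 did, Phgdh and Chac1. Without this filter each genotype comparison had 1 of the 10 with an unadjusted p below 0.05 in edgeR's quasi-likelihood test. These were Mthfd2 in contralateral nerves (log2 difference -0.85, 95% interval -1.63 to -0.08) and Psph in injured nerves (-0.50, -0.96 to -0.03). After adjustment neither was called. The comparisons share libraries, as the contralateral controls serve both the crush and the genotype comparison, so their values are given side by side and not correlated.

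**Figure D1:**
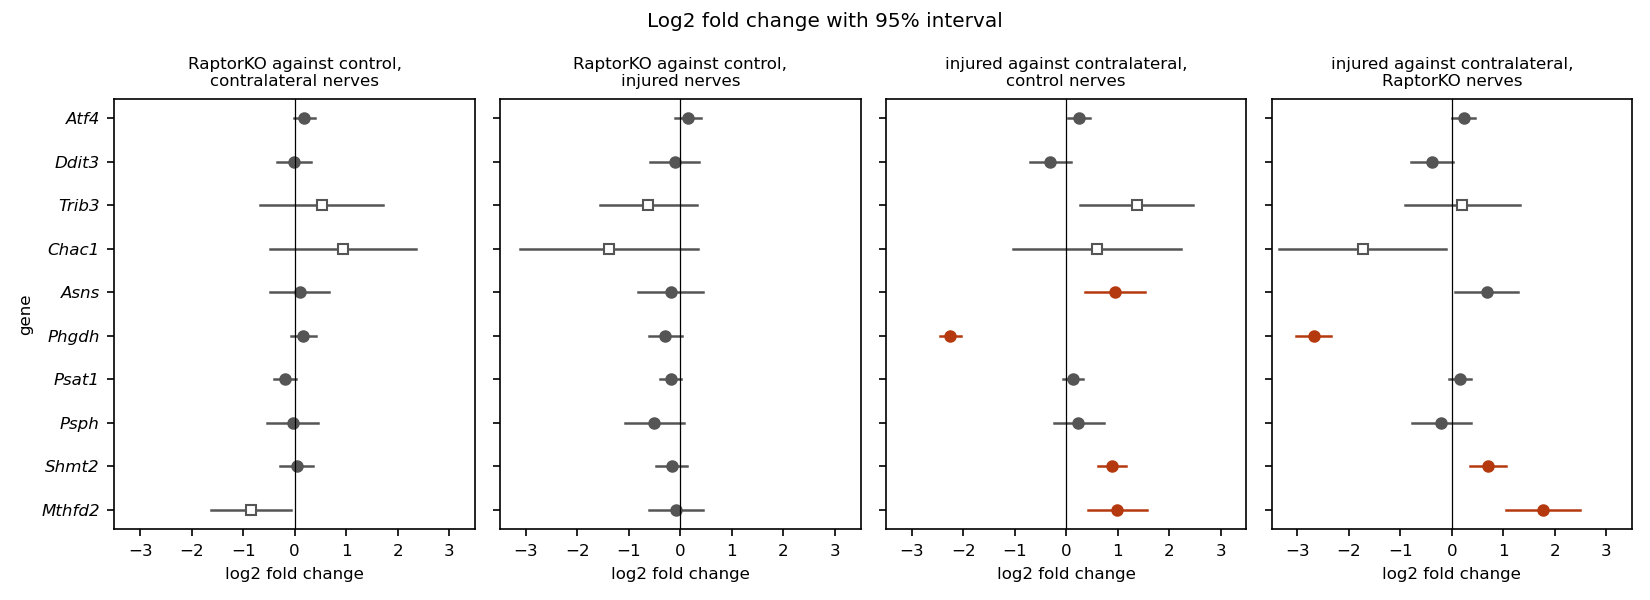
Log2 fold change (horizontal axis) of each of the 10 genes in the 4 comparisons, with lines for the 95% interval of the model. Filled circles are genes that passed the count filter, red when called, and open squares are genes below it, from the fit without a filter. Phgdh lies at -2.25 and -2.68 in the crush comparisons, and no gene is called in the genotype comparisons.

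Atf4 (chromosome 15, 80255184 to 80257541, plus strand) encodes the factor itself. Contralateral controls had 110.7, 100.7, and 129.2 CPM, and contralateral RaptorKOs 127.3, 129.0, 119.8, and 134.0 CPM. Injured controls had 129.1, 137.2, and 145.8 CPM, and injured RaptorKOs 144.6, 171.9, and 135.7 CPM. The highest contralateral control just exceeded the lowest injured control, whereas in RaptorKOs every injured library lay above every contralateral library. The log2 fold change with crush was 0.25 (SE 0.10) in controls and 0.24 (SE 0.10) in RaptorKOs (edgeR's quasi-likelihood test, adjusted p = 0.0447 and 0.0633). The former misses the fold threshold at 1.19-fold and the latter misses both thresholds, so neither was called. In controls the difference was called in 5 of 15 alternatives, among them without both libraries of replicate 3, at a log2 fold change of 0.31 (edgeR's quasi-likelihood test, adjusted p = 0.0272). In RaptorKOs it was called in 1 of 15, without RaptorKO injured replicate 3, at 0.30 (adjusted p = 0.0321 in the same test). Between genotypes Atf4 differed by 0.19 (95% interval -0.02 to 0.40) in contralateral and 0.15 (-0.11 to 0.41) in injured nerves on the log2 scale. Neither passed edgeR's quasi-likelihood test (adjusted p = 0.257 and 0.537).

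Ddit3 (chromosome 10, 127290774 to 127296288, plus strand) encodes CHOP, the factor that couples prolonged stress to cell death. Its CPM was 20.9, 16.6, and 21.3 in contralateral controls, 16.4, 21.3, 18, and 20.9 in contralateral RaptorKOs, 18.9, 12.8, and 16.5 in injured controls, and 14, 18.3, and 11.7 in injured RaptorKOs. All 4 groups overlapped. The log2 fold change with crush was -0.31 (SE 0.18) in controls and -0.39 (SE 0.18) in RaptorKOs, neither of which was called (edgeR's quasi-likelihood test, adjusted p = 0.155 and 0.093). Without RaptorKO injured replicate 2 the latter was called at -0.57 (edgeR's quasi-likelihood test, adjusted p = 0.0251). Exons of Ddit3 overlap Mars and Gm4189 on the opposite strand, and the strand setting of the counting is not given in the sources used here. They also overlap another GENCODE entry named Ddit3 on the same strand. How reads shared with that entry were counted was not examined. Mars had 31.4 to 41.9 CPM over all libraries and Gm4189 held at most 8 counts.

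Trib3 and Chac1 carry the other CAREs. Trib3 (chromosome 2, 152337422 to 152344032, minus strand) encodes a pseudokinase that feeds back on ATF4 and CHOP, and Chac1 (chromosome 2, 119351229 to 119354381, plus strand) an enzyme that degrades glutathione. Both were below the count filter in every comparison. Trib3 had 11, 8, and 18 counts in contralateral controls and 31, 32, and 30 in injured controls, with no overlap. In RaptorKOs it had 13, 16, 21, and 15 counts in contralateral and 19, 36, and 11 in injured nerves, which overlapped. Fitted without the count filter, Trib3 was higher after crush in controls by 1.37 on the log2 scale (SE 0.55, edgeR's quasi-likelihood test, adjusted p = 0.0334), a call that was lost in 6 of the 9 alternatives to that fit. In RaptorKOs the value was 0.20 (95% interval -0.91 to 1.32), and the difference between the genotypes' responses was -1.17 (-2.71 to 0.37, adjusted p = 0.717). Chac1 had 3 to 21 counts over all libraries, among them 8, 3, and 3 in injured RaptorKOs and 15, 9, and 11 in injured controls. These groups did not overlap, yet the log2 difference of -1.38 had a 95% interval from -3.11 to 0.35. At this depth no difference in Chac1 was detectable between genotypes. With crush in RaptorKOs its log2 fold change of -1.73 (-3.35 to -0.12), fitted without the count filter, was not called by edgeR's quasi-likelihood test (adjusted p = 0.0896). It was called by edgeR's exact test (-1.74, adjusted p = 0.0437), and by the quasi-likelihood test with the filter of filterByExpr. In controls the value was 0.60 (-1.03 to 2.23). The responses differed by -2.34 (-4.51 to -0.17), which did not pass after adjustment (edgeR's quasi-likelihood test, adjusted p = 0.437).

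**Figure D2:**
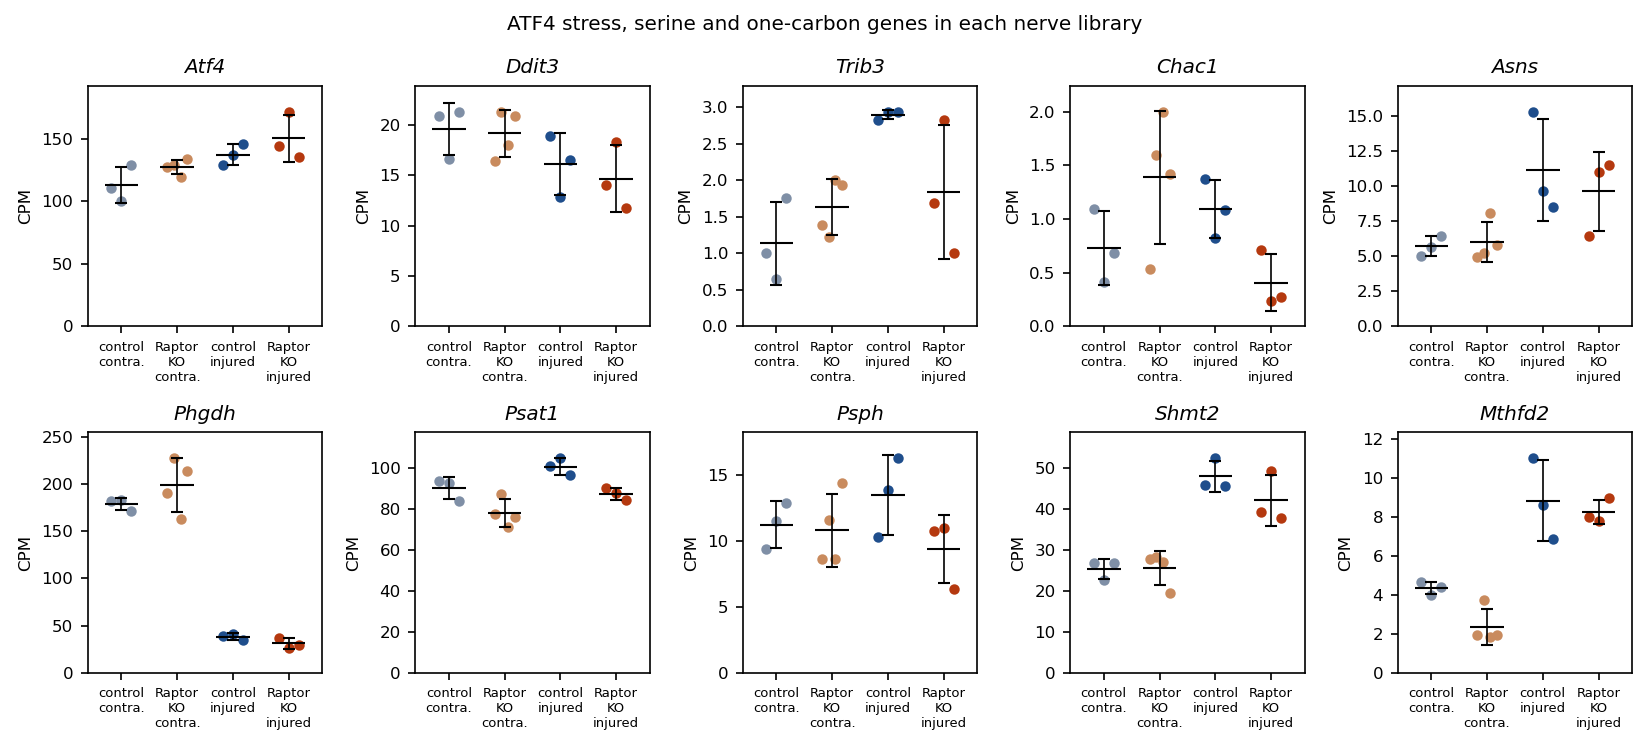
CPM (vertical axes, each from 0) of the 10 genes in the 13 libraries, by group (contra., contralateral). Points are libraries, and lines and bars are the mean and SD over 3 or 4 libraries. Phgdh drops from 162.9 to 227.5 CPM in contralateral nerves to 26.6 to 41.5 CPM in injured nerves, whereas Shmt2 and Mthfd2 lie higher in every injured than in every contralateral library.

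Asns (chromosome 6, 7675169 to 7693254, minus strand) encodes asparagine synthetase, and its promoter element is the best known ATF4 site of amino acid deprivation. Contralateral controls had 5.01, 5.63, and 6.44 CPM, and contralateral RaptorKOs 4.91, 5.19, 8.1, and 5.8 CPM. Injured controls had 15.3, 9.63, and 8.52 CPM, and injured RaptorKOs 6.4, 11, and 11.5 CPM. In controls each injured library lay above each contralateral library, whereas in RaptorKOs the first injured library fell among the contralateral ones. In controls Asns rose by a log2 fold change of 0.95 (SE 0.27, edgeR's quasi-likelihood test, adjusted p = 0.00775), or 1.93-fold, and by 1.21 without both libraries of control replicate 3. In RaptorKOs the log2 fold change of 0.68 (SE 0.28) was not called (edgeR's quasi-likelihood test, adjusted p = 0.055), but it was in 5 of 15 alternatives, with a value of 0.90 without RaptorKO injured replicate 1 and 0.84 without RaptorKO contralateral replicate 3. The responses of the 2 genotypes differed by -0.29 (95% interval -1.13 to 0.55), so the missed call in RaptorKOs is no evidence of a smaller rise. Between genotypes the log2 difference was 0.10 (-0.47 to 0.66) in contralateral and -0.19 (-0.82 to 0.44) in injured nerves.

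Phgdh (chromosome 3, 98313170 to 98339990, minus strand), the first enzyme of the serine pathway, showed the largest change of the 10 genes. Its CPM was 182.1, 183.4, and 171.5 in contralateral controls and 38.5, 41.5, and 34.6 in injured controls. In RaptorKOs it was 190.6, 227.5, 162.9, and 214.4 in contralateral and 37, 26.6, and 29.5 in injured nerves. Injured and contralateral libraries were far apart in both genotypes. The fall amounted to a log2 fold change of -2.25 (SE 0.09) in controls and -2.68 (SE 0.16) in RaptorKOs, a 4.77-fold and a 6.43-fold lower level (edgeR's quasi-likelihood test, adjusted p = 1.18e-09 and 1.95e-07). Without both libraries of control replicate 3 the value in controls was -2.21. Of all tested genes 5.25% in controls and 2.98% in RaptorKOs had a lower log2 fold change than Phgdh.

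The summed SC markers fell along with Phgdh, whereas single markers went both ways. The summed CPM of 14 SC markers, which include myelin genes such as Mbp, was 86408 to 95629 in contralateral and 6435 to 7192 in injured controls, and 73428 to 90274 and 4908 to 5993 in RaptorKOs. Of the 14 markers 9 fell and 3 rose with crush in controls. In RaptorKOs 7 fell and 5 rose. Of all tested genes 32.9% fell and 32.4% rose in controls, and 28.5% and 30.5% in RaptorKOs. The median log2 fold change of the 14 was -0.62 in controls and -0.23 in RaptorKOs. Highly expressed myelin genes weigh heavily in the sum, with means of 23228 CPM for Mbp and 19984 CPM for Pmp22 in contralateral controls. In either genotype 5 of the 14 markers fell further than Phgdh. The 9 markers above Phgdh include those that rose. None of the defining markers was at 0 in all libraries. Over the same comparison the sum of 14 macrophage markers went from 227.7 to 252.2 CPM up to 3363 to 4212 CPM in controls, and from 375.6 to 465.4 CPM up to 2345 to 4725 CPM in RaptorKOs. The part of these shifts in the values of Phgdh was not tested.

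Between genotypes the log2 difference of Phgdh was 0.17 (95% interval -0.08 to 0.42) in contralateral and -0.29 (-0.61 to 0.04) after crush (edgeR's quasi-likelihood test, adjusted p = 0.39 and 0.302). The groups overlapped in both. The log2 fold change with crush differed by -0.45 between RaptorKOs and controls (-0.84 to -0.06). Its unadjusted p was below 0.05, but it did not pass after adjustment over all genes (edgeR's quasi-likelihood test, adjusted p = 0.264, range 0.12 to 0.458 over 20 alternatives).

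Psat1 and Psph, which catalyze the following steps, did not share this fall. Psat1 (chromosome 19, 15904678 to 15947337, minus strand) had 93.8, 93, and 84.1 CPM in contralateral and 101.0, 105.0, and 96.8 CPM in injured controls. RaptorKOs held 77.6, 87.7, 71.2, and 76.2 CPM in contralateral and 90.4, 88.1, and 84.5 CPM in injured nerves. In controls the groups did not overlap, but the log2 fold change was only 0.13 (95% interval -0.05 to 0.32), and in RaptorKOs 0.16 (-0.06 to 0.38), so a change of Psat1 of the size seen for Phgdh lies outside both intervals. Every injured RaptorKO library lay below every injured control library, with a log2 difference of -0.19 (-0.40 to 0.02, edgeR's quasi-likelihood test, adjusted p = 0.298). The contralateral value was also -0.19 (-0.40 to 0.02, adjusted p = 0.249).

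Psph (chromosome 5, 129765558 to 129787449, minus strand) had 9.37, 11.5, and 12.9 CPM in contralateral and 10.3, 13.9, and 16.3 CPM in injured controls. RaptorKOs held 8.64, 11.6, 8.67, and 14.4 CPM in contralateral and 10.8, 11, and 6.4 CPM in injured nerves. All groups overlapped. The log2 fold change with crush was 0.24 (95% interval -0.24 to 0.73) in controls and -0.20 (-0.78 to 0.37) in RaptorKOs. In injured nerves the difference between genotypes was -0.51 (-1.08 to 0.07, edgeR's quasi-likelihood test, adjusted p = 0.298). Exons of Psph overlap Cct6a, a chaperonin gene on the opposite strand that had 122.8 to 178.9 CPM, so a small share of its reads would weigh on Psph if counting ignored strand.

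Because CPM grows with transcript length, levels of different genes were compared as CPM per kilobase of exon. Exon length is the union of all annotated exons of a gene, which can exceed the length of the transcript expressed. The order of the genes and the ratio below depend on this length. In contralateral controls Phgdh had the highest level of the 10 with 72.0 ± 2.62 (SD, n = 3), above Atf4 with 48.2 ± 6.14 and Psat1 with 21.2 ± 1.26. Ddit3 (11.5 ± 1.51), Shmt2 (8.16 ± 0.773), and Psph (2.60 ± 0.409) followed. Psph and Asns (2.08 ± 0.264) overlapped in their ranges, as did Trib3 (0.535 ± 0.266) and Chac1 (0.445 ± 0.21), with Mthfd2 (1.25 ± 0.0934) between these pairs. In injured controls Atf4 (58.2 ± 3.54) and Psat1 (23.7 ± 0.964) stood first, and Phgdh (15.4 ± 1.41) and Shmt2 (15.4 ± 1.23) could not be told apart. RaptorKO nerves had the same first 3 in contralateral nerves and the same first pair in injured nerves. The ratio of Phgdh to Psat1 per kilobase, chosen after the values had been seen and given as a description, was 3.32 to 3.49 in contralateral and 0.611 to 0.677 in injured controls. In RaptorKOs it was 3.91 to 4.82 in contralateral and 0.516 to 0.702 in injured nerves. The order of the first pair of enzymes of the pathway thus turned over with crush in all libraries.

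**Figure D3:**
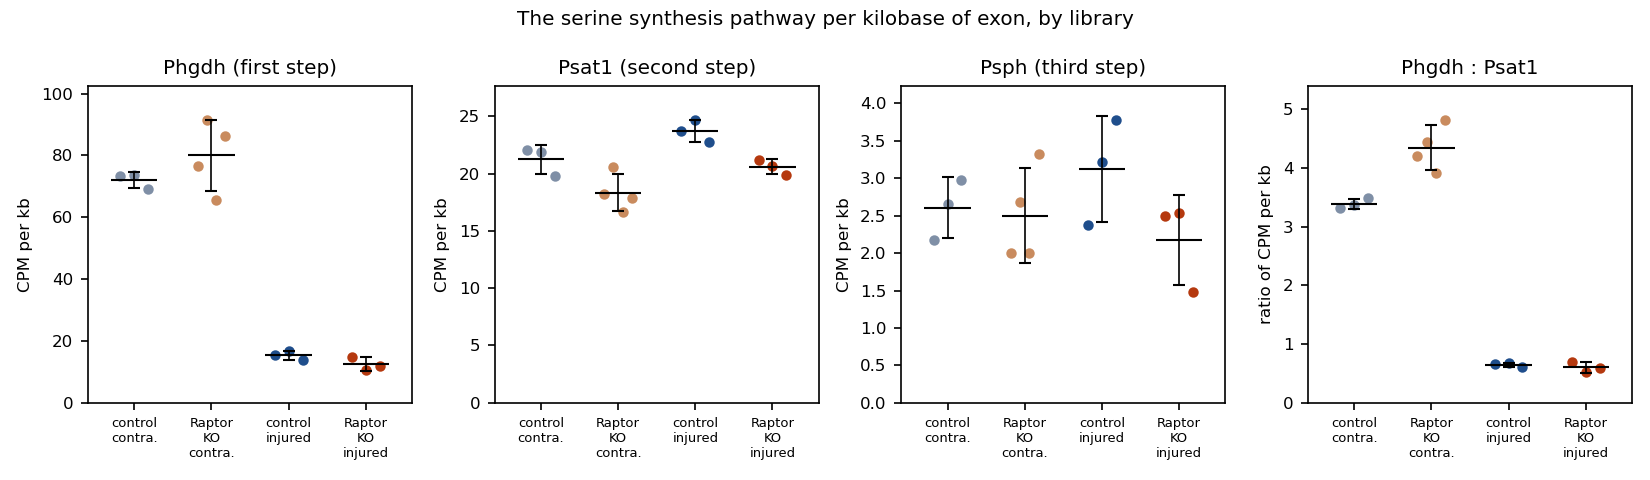
CPM per kilobase of exon (vertical axes, from 0) of the 3 serine synthesis genes in pathway order, and the ratio of Phgdh to Psat1, in each library (contra., contralateral). Points are libraries, and lines and bars are the mean and SD. The ratio lies between 3.32 and 4.82 in contralateral nerves and between 0.516 and 0.702 in injured nerves.

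Shmt2 (chromosome 10, 127517123 to 127522444, minus strand), which opens the mitochondrial one-carbon pathway, had 26.8, 22.6, and 26.7 CPM in contralateral and 45.7, 52.3, and 45.6 CPM in injured controls. RaptorKOs held 27.7, 28.3, 27, and 19.5 CPM in contralateral and 39.3, 49.2, and 37.7 CPM in injured nerves. Injured and contralateral libraries did not overlap in either genotype. Shmt2 rose by a log2 fold change of 0.89 (SE 0.13) in controls and 0.71 (SE 0.16) in RaptorKOs, or 1.86-fold and 1.63-fold (edgeR's quasi-likelihood test, adjusted p = 5.63e-05 and 0.00301). Without both libraries of control replicate 3 the rise in controls was 0.97. Between genotypes the log2 difference was 0.04 (95% interval -0.29 to 0.36) in contralateral and -0.17 (-0.47 to 0.13) in injured nerves. Exons of Shmt2 overlap Ndufa4l2 on the opposite strand, which had 4.93 to 15.5 CPM and changed by -0.66 with crush in controls and by -0.00 in RaptorKOs on the log2 scale, the former a fall by the same test.

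Mthfd2 (chromosome 6, 83305691 to 83325908, minus strand), a folate enzyme of mitochondria that is high in proliferating and low in most resting adult cells, was scarce. Its CPM was 4.64, 4, and 4.39 in contralateral and 11, 8.62, and 6.85 in injured controls. In RaptorKOs it was 1.92, 3.74, 1.81, and 1.93 in contralateral and 8, 7.78, and 8.96 in injured nerves. Injured libraries lay above contralateral ones throughout. Mthfd2 passed the count filter in the crush comparisons only through injured libraries, its higher group, with 70 to 120 counts in controls and 90 to 99 in RaptorKOs. Mthfd2 rose by a log2 fold change of 0.99 (SE 0.26) in controls and 1.78 (SE 0.32) in RaptorKOs, or 1.99-fold and 3.43-fold (edgeR's quasi-likelihood test, adjusted p = 0.00549 and 7.46e-04). Without both libraries of control replicate 3 the rise in controls was 1.16. The rises differed by 0.76 between genotypes (95% interval -0.10 to 1.62, edgeR's quasi-likelihood test, adjusted p = 0.444).

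Every contralateral RaptorKO library lay below every contralateral control library for Mthfd2. With 45 to 51 counts in controls and 15 to 49 in RaptorKOs, it did not pass the count filter there. Fitted without it, the log2 difference was -0.85 (SE 0.37, edgeR's quasi-likelihood test, adjusted p = 0.235), and -1.20 without RaptorKO contralateral replicate 2 (adjusted p = 0.0685), the library with 3.74 CPM. In injured nerves the genotypes overlapped, with a log2 difference of -0.08 (95% interval -0.60 to 0.44). The sum of 12 proliferation markers moved with the rises of Shmt2 and Mthfd2. It was 78.8 to 93.2 CPM in contralateral and 1922 to 2090 CPM in injured controls, and 96.4 to 111.7 CPM and 1170 to 1323 CPM in RaptorKOs. All 12 markers were called higher with crush in both genotypes, beside 32.4% of all tested genes in controls and 30.5% in RaptorKOs. Only 4 of the 12 passed the count filter among contralateral nerves alone. Most thus entered the crush tests through the injured libraries, where they are high, and the filter largely set the direction of this count. In injured nerves 9 of the 12 were lower in RaptorKOs, beside 4.44% of all tested genes, whereas Shmt2 and Mthfd2 were not called. The part of proliferating cells in these values was not tested.

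Other lists of the pathway were examined beside the 10 genes, and each is described by its counts of called genes and its median. Of 21 regulators of the integrated stress response, 6 rose and 8 fell with crush in controls (median log2 fold change 0.00), and 5 rose and 3 fell in RaptorKOs (median -0.05). Of all tested genes 32.4% rose and 32.9% fell in controls, and 30.5% and 28.5% in RaptorKOs. The transcription factor genes Atf3 (3.90 and 4.73 on the log2 scale in controls and RaptorKOs) and Cebpb (2.42 and 2.18) rose, as did Eif2s1 (0.80 and 0.77), which encodes the phosphorylated subunit of eIF2. In controls Cebpb had 3.28 ± 0.879 CPM in contralateral nerves. It passed the count filter there only with the counts of injured libraries, its higher group. Ppp1r15a (-0.88 and -1.06), which encodes the stress-inducible GADD34 subunit that reverses this phosphorylation, fell in both, as did Nupr1 (-0.71 and -0.68). Impact (-0.44 and -0.57), a brake on the kinase GCN2, also fell in both. Ppp1r15b fell in controls (-0.45) and had -0.22 in RaptorKOs, which was not called. Between genotypes Atf3 (-1.17) was lower and Atf5 (0.52) higher in contralateral RaptorKOs, and Atf5 (-0.46) was lower and Nupr1 (0.60) and Eif2ak4 (0.72), which encodes GCN2, were higher in injured RaptorKOs.

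Among 28 further ATF4 targets, 21 were tested with crush in either genotype. In controls 6 rose and 11 fell (median -0.54), and in RaptorKOs 5 rose and 8 fell (median -0.18). The shares over all tested genes were 32.4% and 32.9% in controls, and 30.5% and 28.5% in RaptorKOs. The amino acid transporters Slc7a5 (-3.28 and -2.43), Slc1a5 (-2.30 and -1.97), and Slc38a2 (-1.50 and -1.54) fell in both genotypes. Aldh18a1 (1.67 and 1.33), which starts proline synthesis, and Eif4ebp1 (1.77 and 1.36), which encodes the translation repressor 4E-BP1, rose in both. Got1 (0.99 and 0.91), an aspartate aminotransferase, rose in both as well. Sesn2, which restrains mTORC1, rose in controls (1.79) and had 0.97 in RaptorKOs, which was not called. In contralateral nerves Gpt2 (-0.86) and Slc7a5 (-0.53) were lower and Vldlr (0.61) and Eif4ebp1 (0.61) higher in RaptorKOs, 4 of 20 tested, and none of 22 was called between the genotypes in injured nerves. Over all tested genes the shares called were 10.2% and 8.54%.

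Cytosolic aminoacyl-tRNA synthetases include many ATF4 targets. Of 20 tested, 11 rose and 1 fell in controls (median 0.53), and 11 rose and 0 fell in RaptorKOs (median 0.35). Beside these, 32.4% of all tested genes rose and 32.9% fell in controls, and 30.5% and 28.5% in RaptorKOs. Rars (1.05 and 0.92), Aars (0.82 and 0.87), Gars (0.89 and 0.71), and Vars (1.03 and 1.06) rose in both genotypes. Wars fell in controls (-0.47) and had -0.04 in RaptorKOs, which was not called. Between genotypes Kars was higher in RaptorKOs in contralateral (0.40) and injured nerves (0.49), and Wars (-0.50) and Dars (-0.31) were lower in contralateral RaptorKOs.

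Of 29 other one-carbon and serine-glycine genes, 27 were tested with crush in controls, where 7 rose and 12 fell (median -0.22). In RaptorKOs 7 rose and 10 fell of 26 tested (median -0.12). The shares over all tested genes were 32.4% higher and 32.9% lower in controls, and 30.5% and 28.5% in RaptorKOs. Tyms (1.95 and 1.70), which encodes thymidylate synthase, and the mitochondrial formate producer Mthfd1l (1.57 and 1.79) rose in both genotypes, as Shmt2 and Mthfd2 did. Sptlc2 (-1.52 and -1.31), a subunit of the serine palmitoyltransferase that opens sphingolipid synthesis, and Mat2a (-1.53 and -1.27), which makes S-adenosylmethionine, fell in both, as Phgdh did. Mtr (-1.06 and -0.68), which encodes methionine synthase, and Aldh1l1 (-1.68 and -1.93) also fell in both. In contralateral RaptorKOs 3 of 25 tested were lower, among them Mtr (-0.65) and Srr (-0.46), beside 5.68% of all tested genes. Aldh1l2 (-1.29), the mitochondrial formyltetrahydrofolate dehydrogenase, was lower in injured RaptorKOs. It passed the count filter there only through the controls, where it was higher.

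Of 20 genes of the unfolded protein response of the endoplasmic reticulum, 15 rose and 2 fell with crush in controls (median 0.77) and 15 rose and 0 fell in RaptorKOs (median 0.82). Over all tested genes 32.4% rose and 32.9% fell in controls, and 30.5% and 28.5% in RaptorKOs. Pdia6 (1.47 and 1.33) and Manf (1.35 and 1.33) rose in both genotypes, as did Pdia4 (1.32 and 1.05) and Edem1 (2.00 and 1.78). Sel1l (-0.29) and Dnajc3 (-0.28) fell in controls, and their values of -0.26 and -0.17 in RaptorKOs were not called. Ddit3, the endpoint of the PERK branch, was not called in either genotype. In injured nerves 18 of the 20 log2 differences between genotypes lay below 0 (median -0.23), and the chaperones Hspa5 (-0.49), Pdia4 (-0.47), and Hsp90b1 (-0.45) were lower in RaptorKOs, 3 of the 20 called. Of all tested genes 49.8% lay below 0 and 8.54% were called. In contralateral nerves Dnajc3 (-0.39) was 1 called of 19, beside 10.2% of all tested genes.

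**Figure D4:**
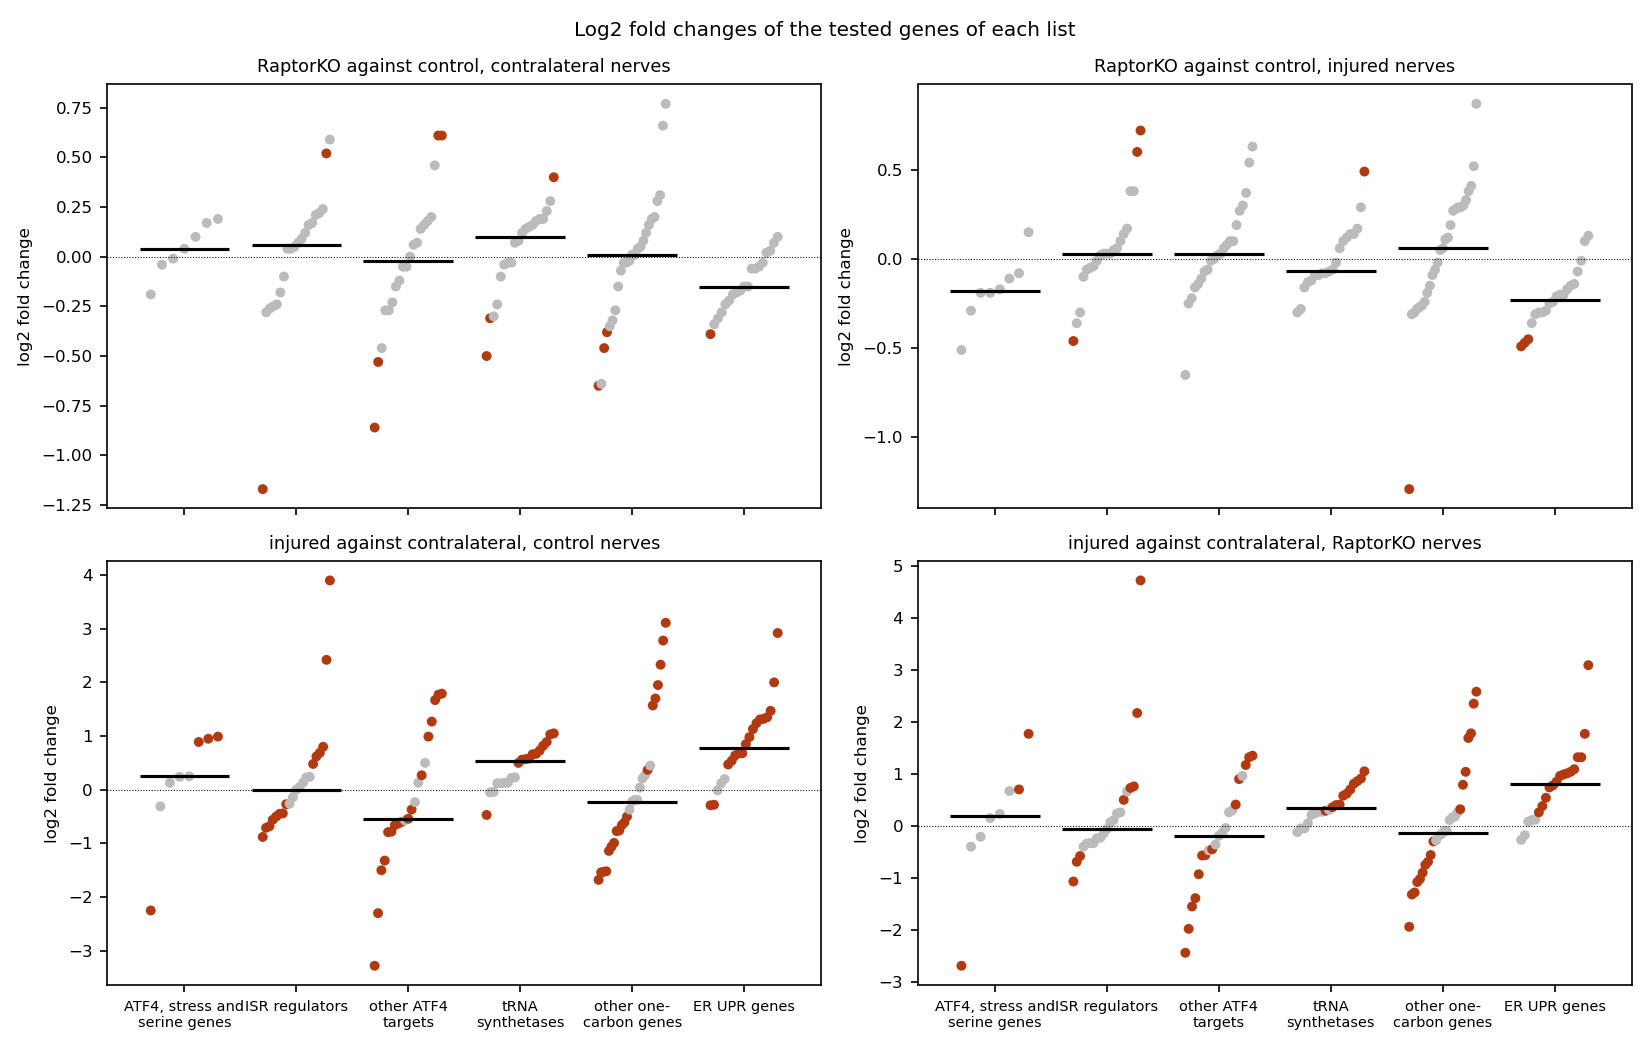
Log2 fold change (vertical axes, scaled separately) of each tested gene of the 10 and of 5 other lists in the 4 comparisons. Points are genes in order of their value, red when called, and black lines are medians. With crush the medians of the tRNA synthetases (0.53 and 0.35) and of the unfolded protein response genes (0.77 and 0.82) lie above 0, and that of the other ATF4 targets lies at -0.54 in controls and -0.18 in RaptorKOs.

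A difference between the genotypes in the response to crush was called for 1 of 21 stress response regulators, 1 of 22 other ATF4 targets, and 1 of 27 one-carbon genes, beside 2.47% of all tested genes. These counts do not set the lists apart from the background, and the 3 genes are given as single values. Atf5, which encodes a paralog of ATF4, had 49.0 ± 3.87 CPM (SD, n = 3) in contralateral and 76.5 ± 2.15 (n = 3) in injured controls, but 69.3 ± 11.4 (n = 4) and 55.1 ± 5.64 (n = 3) in RaptorKOs, with an interaction of -0.97 (SE 0.18, edgeR's quasi-likelihood test, adjusted p = 0.0104). Aldh1l2 had 0.859 ± 0.395 CPM in contralateral and 7.66 ± 0.787 CPM in injured controls, but 2.99 ± 1.07 and 3.10 ± 0.316 CPM for RaptorKOs, with an interaction of -3.06 (SE 0.53, adjusted p = 0.00794 in the same test). Gpt2, a mitochondrial alanine aminotransferase, had 216.6 ± 31.4 CPM in contralateral and 88.6 ± 2.94 CPM in injured controls, but 117.6 ± 22 and 92.9 ± 8.02 CPM for RaptorKOs, with an interaction of 0.95 (SE 0.19, adjusted p = 0.0192 in the same test). In all 3 genes the means of the genotypes differed in contralateral nerves, and their order was reversed after crush. For Gpt2 the injured means lay close together, at 88.6 and 92.9 CPM. Aldh1l2 passed the count filter only through injured controls, its highest group, so its genotype difference in contralateral nerves was not tested. Its interaction and its difference in injured nerves rest on that group.

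Cell type markers also moved with genotype. In contralateral nerves 8 of 12 tested macrophage markers, 3 of 9 fibroblast and perineurial markers, and 2 of 5 mast cell markers were higher in RaptorKOs, and 4 of 14 SC markers were lower and 1 higher. Of all tested genes 4.49% were called higher and 5.68% lower there. In injured nerves 9 of 10 endothelial and 5 of 6 pericyte and smooth muscle markers were higher in RaptorKOs, with summed endothelial CPM of 807.0 to 1212 against 403.0 to 597.0 in controls. There 5 of 6 mast cell markers and 3 of 8 fibroblast and perineurial markers were also higher, and 3 of 14 SC markers were lower and 1 higher. The summed adipocyte markers varied widely between libraries, from 1.53 to 495.9 CPM with a median of 24.4 in contralateral RaptorKOs and from 1.71 to 151.1 CPM in contralateral controls. No gene of the 10 was called between the genotypes when any single library was left out. Ly6g and Myh1 were at 0 in all libraries, and the 8 muscle markers summed to at most 26.3 CPM. How far such shifts add to or mask differences in the 10 genes was not tested.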

How the data were processed

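The authors trimmed reads with Trimmomatic, aligned them to GRCm38, and deposited expected counts per gene from RSEM 1.2.22, not normalized for depth, for all 13 libraries. These were rounded to whole numbers here. Genes were matched by gene ID to GENCODE M21 (GRCm38), and 40550 of 40787 had a symbol. Counts were scaled with TMM factors and tested with edgeR's quasi-likelihood test (edgeR 4.0.16, R 4.3.3), with Benjamini-Hochberg adjustment over all genes with 50 counts in at least 2 libraries of the comparison. Calls needed an adjusted p below 0.05 and a fold change above 1.2. Each comparison used its own groups, and the interaction all 13 libraries. Genes below the filter are given by counts and by a fit without filter. The scripts were tested on simulated data. Alternatives were the exact test used by the authors, DESeq2 1.42.0, RLE factors, other filters, 1 joint fit, a replicate block, a stricter threshold, and leaving out libraries. For genes below the filter, these were repeated without it, a choice made after seeing the data. From each pathway list up to 3 called genes per direction with the smallest p are named, apart from some that are not reported here. The genes, lists, and tests were chosen with earlier results of these data known. Depth sets the precision: 50 counts is the floor for a test, and intervals are those of the model.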

Additional observations from a re-analysis of the deposited data

Results flagged for a closer look

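The 10 genes were each examined for a library far from the others in the contralateral RaptorKO nerves, the group with 4 libraries, and chance would mark about 1 in 20 such groups. In 2 of the 10, the gap between the extreme library and its neighbor, as a share of the whole range, exceeded Dixon's critical value for 4 samples. For Shmt2 the lowest library, RaptorKO contralateral replicate 4, had 19.5 CPM, and its gap share was 0.848. For Mthfd2 the highest library, RaptorKO contralateral replicate 2, had 3.74 CPM, and its gap share was 0.937. It held 49 counts, against 15 to 19 in the other 3 libraries.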

How the results depend on the processing

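No gene of the 10 was called in a genotype comparison or in the interaction in any of 86 settings. Of 733 alternatives over all genes and comparisons, 679 kept direction and call, 13 gained a call, 6 lost one, all for Trib3 with crush in controls, and 35 changed sign, all at values that were not called. For genes below the count filter only fits without it are among the 733, so the call of Chac1 with filterByExpr is not. With crush in controls the number called higher was 5 without a count filter, since Atf4 and Trib3 were added, and 3 to 4 when single libraries were left out. In RaptorKOs the number called lower was 2 with filterByExpr, which added Chac1, and 1 to 2 when single libraries were left out (2 without RaptorKO injured replicate 2, which added Ddit3). Leaving out single libraries moved log2 differences between genotypes through 0 in contralateral nerves for Ddit3 (-0.12 to 0.06), Psph (-0.20 to 0.07), Asns (-0.08 to 0.20), and Shmt2 (-0.04 to 0.14), and in injured nerves for Ddit3 (-0.31 to 0.03), Asns (-0.36 to 0.10), and Mthfd2 (-0.23 to 0.10). With crush in RaptorKOs it did so for Trib3 (-0.25 to 0.49) and Psph (-0.33 to 0.00), and in the interaction for Atf4 (-0.14 to 0.05), Ddit3 (-0.29 to 0.03), Asns (-0.55 to 0.00, the former without both libraries of control replicate 3), and Psat1 (-0.05 to 0.07). The interaction of Psat1 was also -0.01 with DESeq2, -0.01 with RLE factors, -0.00 with filterByExpr, and -0.00 with the replicate block. The causes were not tested. Whether equal replicate numbers mark nerves of 1 mouse is not stated. Both libraries of control replicate 3 were high in Xist. Correlations of libraries' deviations from the group means were taken between injured and contralateral nerves. They ranged from -0.024 to 0.305 for same-numbered and from -0.298 to 0.137 for different-numbered libraries. The paper describes the contralateral nerves as corresponding to the injured ones. The main tests took libraries as independent because the labels state no pairs, and pairing was not excluded. The replicate block gave Phgdh -2.26 in controls and -2.65 in RaptorKOs with crush and changed no call of the 10 genes. Counts over all genes moved by over 1.5 times in the genotype comparisons and the interaction. Between genotypes in contralateral nerves 1208 were called, from 477 at an adjusted p below 0.01 to 1818 under the replicate block, with 524 without control contralateral replicate 2. In injured nerves 1028 were called, from 351 at the stricter threshold to 1556 with no count filter, with 447 without control injured replicate 2. In the interaction 318 were called, from 84 at the stricter threshold to 598 with DESeq2. Depth limited Trib3 and Chac1, which held at most 36 and 21 counts.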

Other observations

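The ratio of Phgdh to Psat1 per kilobase, examined after the values had been seen, was higher in all 4 contralateral RaptorKO libraries (3.91, 4.21, 4.44, and 4.82) than in the 3 contralateral controls (3.32, 3.37, and 3.49). Neither gene was called between the genotypes, and the ratio was not tested. In injured nerves the ranges of the genotypes overlapped.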
